A study of Mus musculus with 26 samples.

Results

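The comparison is of livers labelled Nr1d1 knockout with control livers, both collected at circadian time 12 (CT12). It rests on 4 RNA-seq libraries, 2 of labelled knockout livers and 2 of control livers, out of 26 libraries in the series, of which 20 are RNA-seq. The members were chosen by the genotype and the time in the sample titles. The labelled knockout mice are given as the strain Nr1d1 knockout and were 8 weeks old. The control mice were C57BL/6 of the same age. The kind of allele, the method of deletion and the sex of the mice are not given in these sources. All mice were kept on 12 h of light and 12 h of darkness for at least 1 week and then in constant darkness for 2 days, so CT12 is the hour at which lights would have gone off. CT0 is the hour at which they would have come on. The other groups used below include livers labelled Nr1d1 knockout and control livers at CT0 (2 each). From a second experiment come livers labelled liver-specific Bmal1 knockout at CT12 and at CT0 (3 each). The C57BL/6 controls of that experiment at CT12 and at CT0 (3 each) are used too. All are from mice of 8 weeks under the same lighting. RNA was taken from whole liver, so fewer cells of a type and less RNA per cell cannot be told apart in any value below. The labels describe pairs of labelled knockout and control mice, which makes the libraries of 1 group separate animals.

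Nr1d1 encodes REV-ERBα, a nuclear receptor of the circadian clock that lacks the activation function of most of its family. It binds the half-site AGGTCA behind an A/T-rich flank, holds the corepressor NCoR and the deacetylase HDAC3 on DNA, and competes there with the activating ROR receptors. The activators BMAL1 (gene symbol Arntl) and CLOCK drive Nr1d1 through E-boxes (CACGTG), and REV-ERBα in turn represses Arntl. In mouse liver REV-ERBα protein peaks late in the light phase, and the receptor is known for its hold on lipid, bile acid and glucose genes.

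The values are RPKM (reads scaled to transcript length and library depth), as deposited, with 1 transcript standing for each gene symbol. RPKM sums over gene transcripts were 588418 and 2116266 in the labelled knockout libraries (replicates 1 and 2) and 737070 and 2099302 in the control libraries. Replicate 2, which alone is described as paired-end, thus ran about as high in both genotypes, and levels are comparable only within a replicate number. Reads recovered from the RPKM steps came to 6.10 M and 24.50 M in the labelled knockout libraries and 6.34 M and 31.47 M in the control libraries (M, in units of 1e6; the most abundant genes are left out, and the unit is known up to a factor common to the libraries). Albumin took 6.17% and 9.34% of the RPKM sum in labelled knockout livers and 5.06% and 9.59% in control livers, and the summed level of 12 hepatocyte markers differed by 0.05 and 0.01 on the log2 scale in pairs 1 and 2. The Y-linked genes Ddx3y, Eif2s3y and Uty were at or near 0 in the 4 CT12 libraries. Ddx3y, an RNA helicase gene, was at 0.0137 and 0 RPKM in labelled knockout livers and 0.0562 and 0 RPKM in control livers at CT12. At CT0 it was at 5.39 and 0 RPKM in labelled knockout livers and 5.64 and 0 RPKM in control livers, so replicate 1 differed between the times. In the Bmal1 experiment at CT12 Ddx3y averaged 28.8 ± 1.75 RPKM in knockout livers and 22.1 ± 5.90 RPKM in control livers (SD, n = 3 each). These libraries enter the shared estimate of spread and the comparison with CT0, and fits on the CT12 libraries alone are given beside the results they touch.

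The transcript of Nr1d1 itself was not lower in both pairs. It was at 11.1 and 28.4 RPKM in livers labelled knockout and at 3.45 and 33.4 RPKM in control livers. In replicate 1 the labelled knockout liver was the higher, in replicate 2 the control liver, and the groups overlap. The log2 difference, labelled knockout minus control, was 1.55 in pair 1 and -0.23 in pair 2, and 0.66 ± 0.64 in the fit (SE, n = 2 each; limma, Benjamini-Hochberg adjusted p = 1.000). Without replicate 1 of the labelled knockout livers it was -0.37. A transcript that loses an exon can keep its reads, and the allele is not given, so this level cannot check the labels, which are quoted as such throughout. Thra, the thyroid hormone receptor gene whose 3′ end overlaps Nr1d1 on the opposite strand, was at 2.61 and 16.0 RPKM in labelled knockout livers and 3.84 and 24.9 RPKM in control livers. The kit does not mark strand, so reads in the overlap cannot be assigned to 1 of these genes.

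Of 12738 genes tested, 4 rose in labelled knockout livers at CT12 and 1 fell (limma on log2(RPKM + 0.5) with replicate number as a block, 8 libraries, two-sided, adjusted p under 0.05). These are 0.0314% and 0.00785% of the genes tested, or 0.0393% together. At an unadjusted p under 0.05 there were 579, or 4.55%. The genes that rose encode the clock activator BMAL1 (Arntl), lipoprotein lipase (Lpl), choline kinase α (Chka) and the mitochondrial persulfide dioxygenase ETHE1 (Ethe1). The gene that fell was D0H4S114, also known as Nrep or P311, which codes for a small neuronal regeneration protein.

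Arntl had 8.00 and 19.3 RPKM in labelled knockout livers, against 0.597 and 1.30 RPKM in control livers. Both labelled knockout livers lay above both control livers, and the fitted log2 difference was 3.21 ± 0.31 (SE; adjusted p = 0.0395). Lpl, which frees fatty acids from circulating triglyceride, had 11.2 and 23.6 RPKM in labelled knockout livers and 1.74 and 5.25 RPKM in control livers, again without overlap (log2 difference 2.23 ± 0.23, limma adjusted p = 0.0395). Adult hepatocytes are known to make little Lpl.

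Chka, the first enzyme of phosphatidylcholine synthesis from choline, had 10.9 and 59.8 RPKM in labelled knockout livers and 3.14 and 11.1 RPKM in control livers. Replicate 1 of the labelled knockout livers lay just under replicate 2 of the controls, and the labelled knockout liver was the higher in each pair (log2 difference 2.02 ± 0.21, limma adjusted p = 0.0395). Ethe1, which clears hydrogen sulfide products in mitochondria, had 56.8 and 181 RPKM in labelled knockout livers and 15.4 and 62.8 RPKM in control livers, with the same order within pairs (1.69 ± 0.18, limma adjusted p = 0.0395). D0H4S114 had 3.04 and 9.40 RPKM in labelled knockout livers and 18.2 and 47.6 RPKM in control livers. Both labelled knockout livers lay under both controls (log2 difference -2.34 ± 0.19, limma adjusted p = 0.0313).

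These calls hang on few residual degrees of freedom (3) and on each CT12 library. No gene was called without replicate 1 of the labelled knockout livers, without replicate 2 of them or without replicate 1 of the controls, and 3 were called without replicate 2 of the controls. In a fit of the 4 CT12 libraries alone 38 genes were called, 34 higher and 4 lower (0.298%, 0.267% and 0.0314% of genes tested), among them the 5 above. With no replicate block no gene was called.

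The pairs were also set side by side gene by gene. At least 2-fold apart in the same direction in both pairs were 67 genes higher (0.526% of genes tested) and 18 genes lower (0.141%) in labelled knockout livers. By any amount, 3949 genes (31.0%) were higher in both pairs and 2990 (23.5%) lower, but this split turns with the scaling, to 6269 and 990 when libraries were brought to 1 RPKM sum and to 3153 and 3819 with TMM factors. The median over all genes was -0.01 in pair 1 and 0.07 in pair 2, with SDs of 0.37 and 0.47. The 67 genes had fitted log2 differences of 1.03 to 3.64 with a median of 1.58, and the 18 genes had -4.50 to -1.21 with a median of -1.82. Of the 67, 32 were called in the fit of CT12 libraries alone, and of the 18, 4. By the smaller of the pair differences (bound 1), Gas2 (1.003) and Lpin1 (1.005) lay just inside and Cd9 (0.9993) and Zbtb16 (0.9905) just outside. On the lower side Mup4 (-1.009) and Lepr (-1.022) lay just inside and Ung (-0.9961) and Acot5 (-0.9847) just outside. Genes named below beyond the clock, receptor and called genes were chosen after their values were seen.

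**Figure D1:**
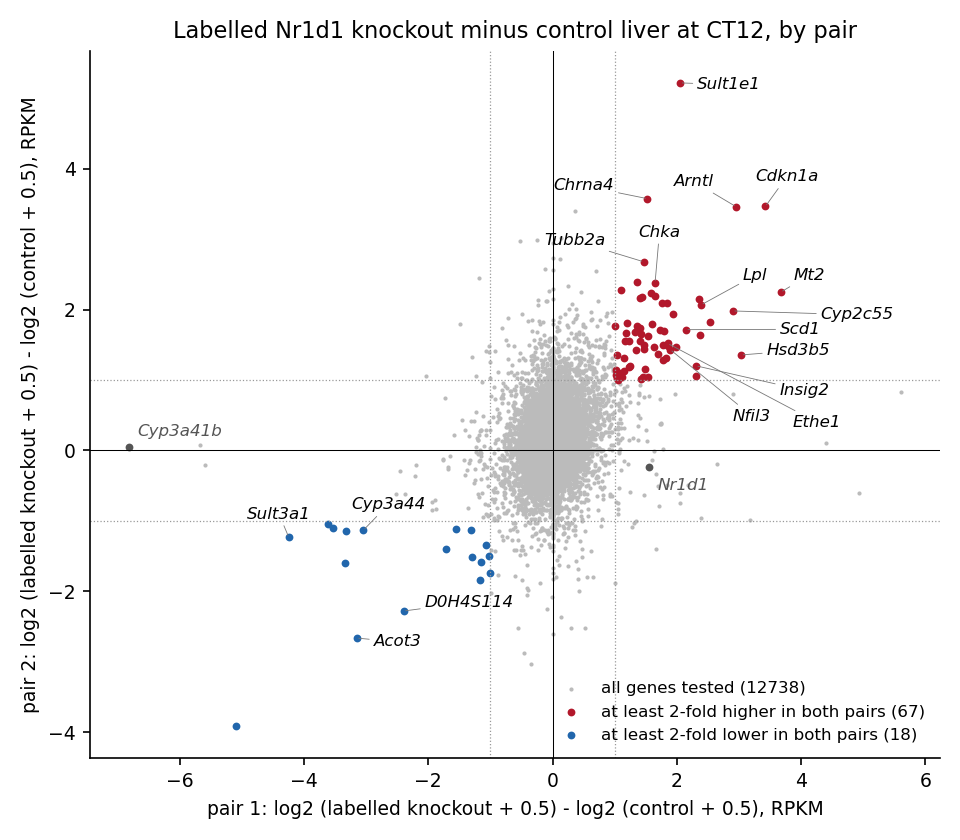
Each point is 1 of the 12738 genes tested, with the log2 difference of RPKM + 0.5, labelled Nr1d1 knockout minus control at CT12, in pair 1 on the horizontal axis and in pair 2 on the vertical axis. The 67 genes at least 2-fold higher in both pairs are red, the 18 at least 2-fold lower are blue, and dotted lines mark the 2-fold bounds. Nr1d1 lies at 1.55 in pair 1 and -0.23 in pair 2, and Cyp3a41b at -6.81 and 0.05, so both differ in 1 pair only.

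The clock genes that REV-ERBα is known to repress were described first. Of 7 such genes, all tested, 6 were higher in both pairs and 1 lower, with a median log2 difference of 0.58 against 0.04 over all genes tested. The counts were the same under each of the 3 other scalings, where the median lay at 0.36 to 0.68. Among the 7, Arntl alone passed the test. Clock, the partner of BMAL1, had 3.88 and 2.67 RPKM in labelled knockout livers and 1.81 and 1.34 RPKM in control livers, without overlap (0.85 ± 0.21, limma adjusted p = 0.559). Npas2, a stand-in for CLOCK, was at 0.285 and 0.392 RPKM in labelled knockout livers and 0.0471 and 0.0725 RPKM in control livers. These rest on 76 and 112 recovered reads in labelled knockout livers and 13 and 28 in control livers, and the 0.5 added to RPKM holds its log2 difference to 0.58 ± 0.49. All 4 labelled knockout values of Clock and Npas2 lay above the control values of the same gene.

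Nfil3, also called E4BP4, is a repressor that acts on D-box elements. It had 12.9 and 26.04 RPKM in labelled knockout livers and 3.10 and 9.35 RPKM in control livers. Both labelled knockout livers lay above both control livers (1.66 ± 0.32, limma adjusted p = 0.278, and 0.040 in the CT12 libraries alone). Cry1, which codes for a repressor of BMAL1 and CLOCK, had 5.19 and 19.3 RPKM in labelled knockout livers and 4.07 and 15.8 RPKM in control livers, with 0.30 ± 0.18 in the fit. E2f8, a cell cycle repressor, was at 0.989 and 10.8 RPKM in labelled knockout livers and 0.834 and 8.53 RPKM in control livers, a difference of 0.24 ± 0.60. In Cry1 and E2f8 the distance between genotypes was small beside that between replicate numbers.

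Of the receptors related to REV-ERBα, Nr1d2 (REV-ERBβ, which overlaps REV-ERBα in function) had 10.3 and 14.4 RPKM in labelled knockout livers and 9.87 and 10.8 RPKM in control livers (0.23 ± 0.37). Rora (RORα) had 7.43 and 5.62 RPKM in labelled knockout livers and 6.05 and 4.98 RPKM in control livers (0.22 ± 0.20). Rorb was at 0 in all 4 libraries and was not tested.

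The clock genes driven through E-boxes showed no common direction at CT12. Of 13, all tested, 4 were higher in both pairs and 4 lower, with a median of -0.01, and none was called. Under the other scalings 3 to 7 were higher in both pairs and 2 to 5 lower. Dbp, the D-box activator with the steepest rhythm in liver, had 31.1 and 247 RPKM in labelled knockout livers and 36.2 and 216 RPKM in control livers (-0.01 ± 0.28). Gm129, also called Ciart or CHRONO and a repressor of BMAL1, had 12.5 and 40.5 RPKM in labelled knockout livers and 12.5 and 39.3 RPKM in control livers (0.02 ± 0.24). For both genes the labelled knockout and control livers of a pair lay close together.

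Of the period genes, which code for repressors of the clock, Per1 differed by 0.33 ± 0.20, Per2 by -0.43 ± 0.34 and Per3 by -0.23 ± 0.31, and Cry2 by 0.19 ± 0.24. The D-box activators Tef and Hlf differed by -0.10 ± 0.22 and -0.14 ± 0.19. Bhlhe40 and Bhlhe41, which code for DEC1 and DEC2 and compete for E-boxes, differed by 0.68 ± 0.23 and 0.92 ± 0.60. Bhlhe41 was higher in pair 2 alone, at 2.48 and 5.24 RPKM in labelled knockout livers and 2.99 and 0.869 RPKM in control livers. Usp2, a deubiquitinase gene, had 8.24 and 59.0 RPKM in labelled knockout livers and 12.8 and 83.1 RPKM in control livers (-0.55 ± 0.19). Wee1, the kinase gene that holds cells before mitosis, had 2.78 and 14.003 RPKM in labelled knockout livers and 5.62 and 21.4 RPKM in control livers (-0.75 ± 0.25). Usp2 and Wee1 were lower in both pairs, and neither passed the test.

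**Figure D2:**
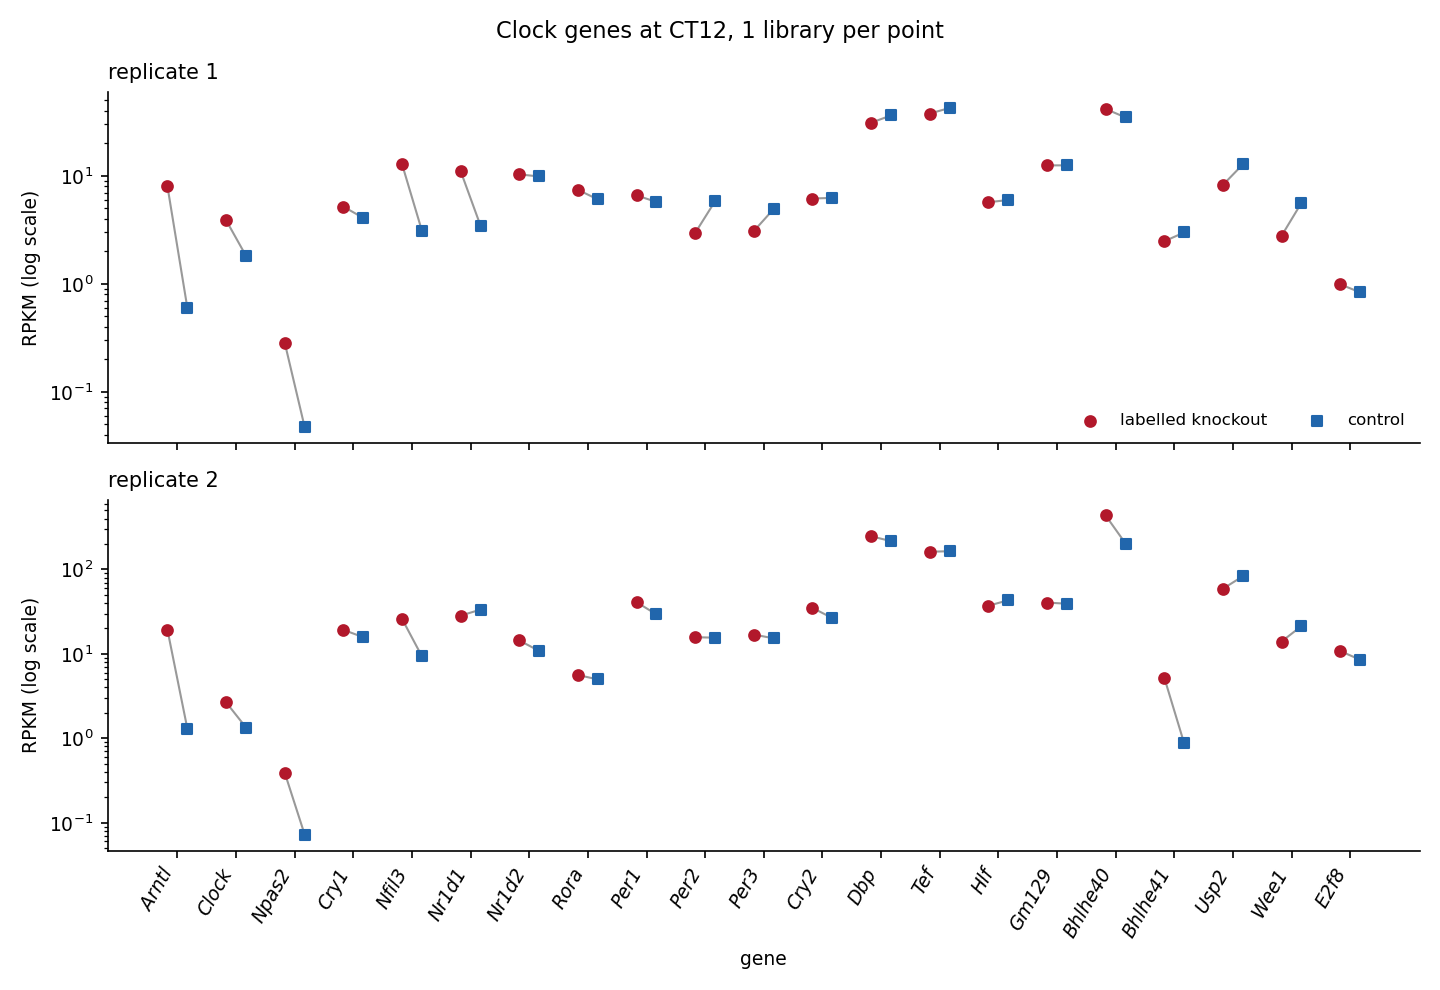
RPKM on a log scale of clock genes at CT12, replicate 1 above and replicate 2 below, with labelled Nr1d1 knockout livers as red circles and control livers as blue squares, 1 library per point and a line joining each pair. Arntl, Clock, Npas2 and Nfil3 stand higher in the labelled knockout liver in both panels, Usp2 and Wee1 lower, and Gm129 lies level.

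Promoters were read to show what lies at these genes. The sequences are RefSeq promoters of build GRCm38.p6, from 250 bases before to 50 bases after a start site, written 5′ to 3′ on the gene's strand. Those of Arntl and Nfil3 are shown because both genes stood higher in labelled knockout livers and hold TAGGTCA, the half-site with the T that precedes it in many REV-ERBα sites. That of Gm129 is shown as a gene of E-boxes that lay level. Capitals mark TAGGTCA in Arntl (chr7:113207261-113207560, plus strand), its reverse complement TGACCTA in Nfil3 (chr13:52980990-52981289, minus strand), and CACGTG in Gm129 (chr3:95882179-95882478, minus strand).
Arntl: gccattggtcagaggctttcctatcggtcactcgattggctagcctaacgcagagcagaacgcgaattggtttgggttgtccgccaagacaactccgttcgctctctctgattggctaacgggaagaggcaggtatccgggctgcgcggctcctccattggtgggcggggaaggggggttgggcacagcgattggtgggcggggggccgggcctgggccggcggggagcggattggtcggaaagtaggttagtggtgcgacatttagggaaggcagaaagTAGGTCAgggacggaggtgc
Nfil3: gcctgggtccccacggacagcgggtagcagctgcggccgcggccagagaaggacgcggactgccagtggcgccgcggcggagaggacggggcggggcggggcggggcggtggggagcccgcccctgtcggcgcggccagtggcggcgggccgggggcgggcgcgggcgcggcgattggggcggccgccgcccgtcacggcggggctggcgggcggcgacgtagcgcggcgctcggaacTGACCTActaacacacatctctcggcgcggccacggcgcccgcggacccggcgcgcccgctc
Gm129: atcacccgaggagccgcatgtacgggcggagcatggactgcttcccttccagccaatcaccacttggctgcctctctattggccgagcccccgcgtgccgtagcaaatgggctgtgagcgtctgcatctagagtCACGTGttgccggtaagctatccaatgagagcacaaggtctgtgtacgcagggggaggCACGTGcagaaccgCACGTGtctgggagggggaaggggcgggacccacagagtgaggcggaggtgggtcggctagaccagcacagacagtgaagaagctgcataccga
The match in Arntl begins 30 bases downstream of the start site, that in Nfil3 lies 12 bases upstream, and the 3 in Gm129 begin 116, 58 and 44 bases upstream.

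Each motif was searched on both strands, and every TAGGTCA also counts as an AGGTCA. Of 27025 genes with a promoter in the table, 18.1% held AGGTCA, 2.97% TAGGTCA and 8.09% CACGTG. Of the 9879 of these that were tested, 15.9% held AGGTCA, 2.52% TAGGTCA and 11.6% CACGTG. Of the 67 genes higher in both pairs, 51 had a promoter, of which 10 (19.6%) held AGGTCA, 4 (7.84%) TAGGTCA and 4 (7.84%) CACGTG. The 4 with TAGGTCA were Arntl, Nfil3, Tjp3 and Slc45a3. Of the 18 genes lower in both pairs, 13 had a promoter, of which 5 (38.5%) held AGGTCA and none TAGGTCA or CACGTG. Of the E-box clock genes 10 had a promoter, and 4 (40%) held CACGTG. These are matches of letters in a window of 300 bases. Promoters of Lpl, Scd1, Scd2 and D0H4S114 were not used here.

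Genes of cholesterol synthesis leaned higher as a group. Of 27 genes of sterol sensing and synthesis, all tested, 23 were higher in both pairs and none lower, with a median log2 difference of 0.67 (0.66 in pair 1 and 0.54 in pair 2). None was called. With libraries at 1 RPKM sum 26 were higher in both pairs and none lower, and with TMM factors 22 were higher and 1 lower. Insig2, which holds the SREBP escort SCAP in the endoplasmic reticulum and is known as a REV-ERBα target, was the only member 2-fold apart in both pairs. It had 104 and 251 RPKM in labelled knockout livers and 20.5 and 109 RPKM in control livers. Replicate 1 of the labelled knockout livers lay just under replicate 2 of the controls, and the labelled knockout liver led in each pair (1.75 ± 0.30, limma adjusted p = 0.221). Insig1, its homologue, differed by 0.00 in the fit.

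Along the pathway Hmgcs1, which makes HMG-CoA, had 278 and 475 RPKM in labelled knockout livers and 99.8 and 280 RPKM in control livers (1.12 ± 0.34). Fdps, which makes farnesyl diphosphate, had 385 and 2036 RPKM in labelled knockout livers and 181 and 1059 RPKM in control livers (1.01 ± 0.24). Lss, which closes the sterol rings, had 37.4 and 174 RPKM in labelled knockout livers and 18.6 and 79.4 RPKM in control livers (1.06 ± 0.18, limma adjusted p = 0.210, and 0.048 in the CT12 libraries alone). For these 3 enzymes the labelled knockout liver was the higher in each pair. Sqle, the squalene epoxidase gene, differed by 0.78 ± 0.27. Srebf2, whose product drives the pathway, differed by 0.25 ± 0.37.

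**Figure D3:**
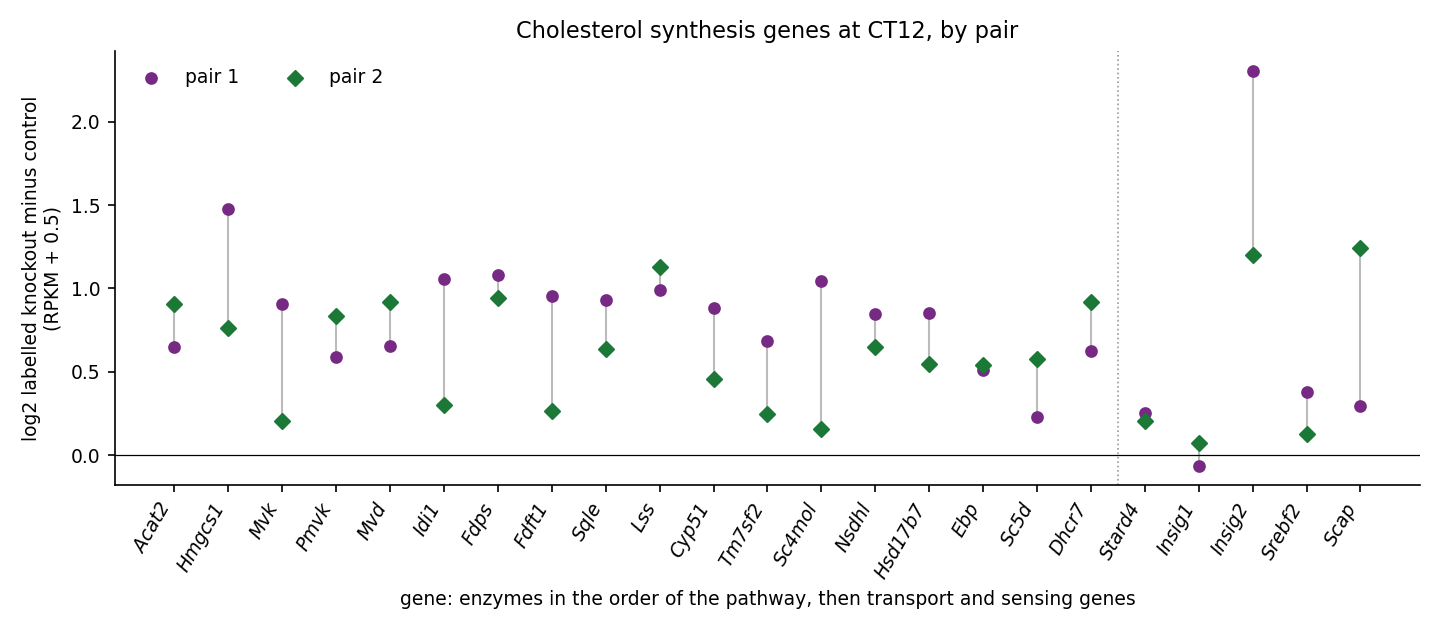
The log2 difference of RPKM + 0.5, labelled Nr1d1 knockout minus control at CT12, for genes of cholesterol synthesis and sterol sensing, with pair 1 as purple circles and pair 2 as green diamonds. All genes plotted but Insig1 lie above 0 in both pairs, and Insig2 stands highest in pair 1 at 2.31.

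Lipogenic genes gave a mixed picture with a few large members. Of 26 tested, 17 were higher in both pairs and 3 lower, with a median of 0.36, none was called, and 4 were at least 2-fold higher in both pairs (Scd1, Scd2, Me1 and Lpin1). The stearoyl-CoA desaturases, which put the double bond into oleate, were higher as a family, with 4 of 4 at least 2-fold higher in both pairs unscaled and under each of the 3 other scalings. Scd1 had 3069 and 9062 RPKM in labelled knockout livers and 693 and 2761 RPKM in control livers. The labelled knockout liver led in each pair and the groups did not overlap, but the SE from all 8 libraries was wide (1.93 ± 0.83, limma adjusted p = 1.000, and 0.061 in the CT12 libraries alone). Scd2 had 23.4 and 50.8 RPKM in labelled knockout livers and 6.67 and 15.2 RPKM in control livers (1.72 ± 0.58, and 0.016 as the limma adjusted p in the CT12 libraries alone). The paralogues are close in sequence, so reads may be shared among them.

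Me1, malic enzyme, had 103 and 753 RPKM in labelled knockout livers and 48.8 and 352 RPKM in control livers (1.08 ± 0.49). Lpin1, a phosphatidate phosphatase and coactivator, had 138 and 256 RPKM in labelled knockout livers and 68.3 and 74.96 RPKM in control livers (1.38 ± 0.40). Acss2, which makes acetyl-CoA from acetate, had 310 and 2366 RPKM in labelled knockout livers and 117 and 712 RPKM in control livers (1.57 ± 0.48). In Me1 and Acss2 the labelled knockout liver was over 2-fold the control in each pair, although replicate 1 of the labelled knockout livers lay under replicate 2 of the controls. Srebf1, whose product drives lipogenesis, was the lowest of the list, at 52.9 and 548 RPKM in labelled knockout livers and 133 and 602 RPKM in control livers (-0.73 ± 0.41). Fasn, the fatty acid synthase, differed by -0.07 in pair 1 and 0.58 in pair 2. Elovl3, an elongase known as a REV-ERBα target, had 2.62 and 3.28 RPKM in labelled knockout livers and 1.28 and 5.35 RPKM in control livers, with opposite directions in the pairs (0.09 ± 1.48).

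Among genes of lipid uptake, droplets and lipolysis Lpl was the only one called. Of 30 tested out of 31, 12 were higher in both pairs and 8 lower, with a median of 0.16. Cd36, a fatty acid translocase gene, had 54.8 and 61.7 RPKM in labelled knockout livers and 33.5 and 28.3 RPKM in control livers (0.91). Plin5, of the lipid droplet coat, had 27.7 and 70.4 RPKM in labelled knockout livers and 11.9 and 45.3 RPKM in control livers (0.91). Cidec, a droplet fusion gene also described as a REV-ERBα target, was lower in both pairs, at 0.243 and 3.06 RPKM in labelled knockout livers and 0.391 and 7.54 RPKM in control livers (-0.72 ± 0.27). Of 36 genes of fatty acid oxidation and ketogenesis 8 were higher in both pairs and 16 lower, with medians of 0.05 in pair 1 and -0.40 in pair 2, so the lean was in 1 pair. With libraries at 1 RPKM sum the list stood at 8 higher and 5 lower, with a median of 0.00. Acot3, a peroxisomal acyl-CoA thioesterase gene, lay furthest down, at 5.39 and 36.6 RPKM in labelled knockout livers and 51.9 and 235 RPKM in control livers. Both labelled knockout livers were under both controls (-2.91 ± 0.96, limma adjusted p = 0.884, and 0.011 in the CT12 libraries alone).

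Bile acid genes had no common direction, with 4 of 23 higher in both pairs and 6 lower and a median of -0.03. Cyp7a1, which sets the rate of bile acid synthesis, had 27.7 and 32.9 RPKM in labelled knockout livers and 27.9 and 74.0 RPKM in control livers, level in pair 1 and lower in pair 2 (-0.59 ± 0.84). Nr0b2, which codes for the repressor SHP, had 7.74 and 31.9 RPKM in labelled knockout livers and 14.7 and 110 RPKM in control livers, lower in both pairs (-1.33 ± 0.23, limma adjusted p = 0.222). Acox2, which shortens the bile acid side chain, had 115 and 383 RPKM in labelled knockout livers and 58.2 and 175 RPKM in control livers (1.05). Of 22 genes of glucose and glycogen metabolism tested out of 23, 13 were higher in both pairs and 3 lower, with a median of 0.30. Ppp1r3c, which brings phosphatase to glycogen, had 16.0 and 24.1 RPKM in labelled knockout livers and 4.17 and 9.43 RPKM in control livers (1.57 ± 0.28, limma adjusted p = 0.238). Gys2, the liver glycogen synthase, had 56.0 and 176 RPKM in labelled knockout livers and 103 and 338 RPKM in control livers (-0.91 ± 0.20). Ppp1r3c was thus higher and Gys2 lower in each pair.

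Xenobiotic genes differed by family. Of 47 tested, 12 were higher in both pairs and 15 lower, with a median of -0.09, 6 at least 2-fold higher in both pairs and 2 at least 2-fold lower. The Gstm genes, μ-class glutathione transferases, were all higher in both pairs (7 of 7) under each scaling, with 4 at least 2-fold higher, or 3 to 5 under the other scalings. Gstm3 had 168 and 473 RPKM in labelled knockout livers and 54.0 and 170 RPKM in control livers (1.55 ± 0.25, limma adjusted p = 0.180, and 0.017 in the CT12 libraries alone). Gstm2 had 237 and 974 RPKM in labelled knockout livers and 72.8 and 378 RPKM in control livers (1.53 ± 0.19, limma adjusted p = 0.086). In both genes the labelled knockout liver stood well over the control within each pair. The Gstm genes are near copies of each other, so counting can spread reads among them.

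Sult1e1, the estrogen sulfotransferase gene, had 11.7 and 44.0 RPKM in labelled knockout livers and 2.45 and 0.696 RPKM in control livers. The groups did not overlap, and the pairs differed in size (2.05 and 5.22; 3.64 ± 1.16 in the fit). Cyp2c55, a cytochrome P450 gene, had 9.33 and 26.5 RPKM in labelled knockout livers and 0.816 and 6.34 RPKM in control livers (2.44 ± 0.41, limma adjusted p = 0.210). Alas1, the rate-limiting enzyme of heme synthesis, had 166 and 872 RPKM in labelled knockout livers and 637 and 1575 RPKM in control livers (-1.40 ± 0.36). Alas1 was lower in both pairs, while Sult1e1 and Cyp2c55 were higher.

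Metallothioneins, small proteins that bind zinc and copper, were among the largest differences. Mt2 had 248 and 1418 RPKM in labelled knockout livers and 19.0 and 298 RPKM in control livers (2.96 ± 0.92). Mt1 had 397 and 2533 RPKM in labelled knockout livers and 76.0 and 809 RPKM in control livers (2.01 ± 0.91). The labelled knockout liver led in each pair, by more in pair 1, and the limma adjusted p was 0.833 for Mt2 and 1.000 for Mt1, against 0.046 and 0.038 in the CT12 libraries alone.

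Cdkn1a, which encodes the cell cycle inhibitor p21 and is known as a REV-ERBα target in mouse liver, had the largest smaller-of-pair difference of any gene. It had 9.09 and 14.8 RPKM in labelled knockout livers and 0.394 and 0.883 RPKM in control livers. Both labelled knockout livers lay far above both controls, with 3.42 and 3.46 in the pairs (3.44 ± 0.65, limma adjusted p = 0.272, and 0.011 in the CT12 libraries alone). Of 17 cell cycle genes tested out of 19, 7 were higher in both pairs and 3 lower, with a median of 0.36 (-0.02 in pair 1 and 0.47 in pair 2), and none but Cdkn1a was 2-fold apart in both. Ccnd1, the cyclin D1 gene, had 7.18 and 38.6 RPKM in labelled knockout livers and 34.7 and 44.7 RPKM in control livers. Car14, a membrane carbonic anhydrase gene, had 59.5 and 188 RPKM in labelled knockout livers and 11.2 and 42.03 RPKM in control livers, higher in both without overlap (2.25 ± 0.34, limma adjusted p = 0.161, and 0.011 in the CT12 libraries alone).

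The β-tubulins Tubb2a and Tubb2b were at least 2-fold higher in both pairs under each scaling. Tubb2a had 32.5 and 203 RPKM in labelled knockout livers and 11.4 and 31.4 RPKM in control livers. Tubb2b had 8.38 and 26.8 RPKM in labelled knockout livers and 2.95 and 4.68 RPKM in control livers. For both genes each labelled knockout liver lay above both controls, with fitted differences of 2.07 ± 0.30 and 1.88 ± 0.27 (limma adjusted p = 0.129 each). Over 11 tubulin genes tested out of 12, 3 were higher in both pairs and 1 lower, with a median of 0.13, and with libraries at 1 RPKM sum 9 were higher and 1 lower (median 0.29). Tubb2a and Tubb2b are near copies of each other, so their reads may be shared.

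Among the 18 genes lower in both pairs were 8 of the 18 female-biased liver genes, all tested. Of that list 14 were lower in both pairs and 1 higher, with medians of -3.10 in pair 1 and -0.44 in pair 2, so the size came from pair 1. The counts were 14 to 16 lower and 1 higher under the other scalings. The summed level of the list was 817 and 9821 RPKM in labelled knockout livers and 6600 and 11322 RPKM in control livers. None was called in the fit of 8 libraries. The Y-linked genes were at or near 0 in all 4 CT12 libraries, and within the 4 alone Acot3 and Cyp2b13 passed the test. Of 16 male-biased genes tested out of 17, 6 were higher in both pairs and 2 lower, with a median of 0.16.

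Cyp2b13, a cytochrome P450 gene, had 46.4 and 189 RPKM in labelled knockout livers and 153 and 498 RPKM in control livers (-1.56 ± 1.66, and 0.022 as the limma adjusted p in the CT12 libraries alone). Sult2a1, a hydroxysteroid sulfotransferase gene, had 17.3 and 344 RPKM in labelled knockout livers and 216 and 711 RPKM in control livers (-2.33 ± 1.67). Without replicate 1 of the controls the fitted differences of Cyp2b13 and Sult2a1 turned to 0.60 and 0.46, and without replicate 2 of the labelled knockouts that of Cyp2b13 was 0.39. Cux2, a transcription factor gene of female liver, had 0.146 and 12.7 RPKM in labelled knockout livers and 7.003 and 27.7 RPKM in control livers. Acot3 and Cyp2b13 were thus members with pairs of like size, and Cux2 and Sult2a1 differed more in pair 1.

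Other members of the female-biased list differed in pair 1 alone. Cyp3a41b had 13.9 and 1676 RPKM in labelled knockout livers and 1617 and 1618 RPKM in control livers. A1bg had 0.714 and 22.5 RPKM in labelled knockout livers and 58.3 and 26.1 RPKM in control livers. In both genes replicate 1 of the labelled knockout livers was the library that stood low. Over near-identical families, the sulfotransferases Sult2a and Sult3a were lower in both pairs in 7 of 7 (6 with libraries at 1 RPKM sum), and Cyp3a genes in 4 of 9 (3 to 6 under the other scalings). The major urinary protein genes (Mup) were lower in both pairs in 8 of 21 and higher in 1.

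Other lists lay near the whole set of genes or moved in 1 pair. Heat shock and folding genes were lower in both pairs in 13 of 20 and higher in 4, with a median of -0.17 that went to -0.02 with libraries at 1 RPKM sum. Creld2 and Manf, of the unfolded protein response, differed by -0.85 and -0.67, and Hspa1a, an inducible HSP70 gene, by 0.57. Acute phase genes were higher in both pairs in 11 of 22 and lower in 5 (median 0.12). Immediate-early genes were higher in 4 of 14 tested and lower in 3 (median 0.05). The corepressor and tethering partners of REV-ERBα, NCoR and HDAC3 among them, were higher in 4 of 10 and lower in 3 (median 0.02). The 10 tested neighbours of Nr1d1 on its chromosome were higher in 3 and lower in 3 (median 0.10), and the 9 tested neighbours of the long noncoding RNA lnc-Crot were higher in 2 and lower in 4 (median -0.01). None of these lists held a called gene.

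Markers of other liver cells had higher medians in pair 2 than in pair 1 for most lists. Stellate cell and fibroblast markers were higher in both pairs in 7 of 10 and lower in none, with medians of 0.08 in pair 1 and 0.85 in pair 2, and summed to 142 and 525 RPKM in labelled knockout livers and 133 and 303 RPKM in control livers. Cholangiocyte markers were higher in 5 of 7 and lower in none (medians 0.28 and 0.67), and summed to 80.9 and 583 RPKM in labelled knockout livers and 68.1 and 326 RPKM in control livers. Kupffer cell markers had medians of -0.13 and 0.56, with 2 of 12 higher in both pairs and none lower, and endothelial markers 0.03 and 0.56, with 5 of 10 higher and none lower. These counts turn on the scaling: with libraries at 1 RPKM sum 12 of 12 Kupffer cell, 10 of 10 endothelial, 9 of 10 stellate cell and 6 of 7 cholangiocyte markers were higher in both pairs, against 6269 of 12738 genes tested. Erythroid markers went opposite ways, with sums of 1819 and 2975 RPKM in labelled knockout livers and 910 and 4811 RPKM in control livers. Neutrophil markers had medians of -0.15 and 1.04 over 4 tested out of 9, with 5 of the list under the filter. The 7 lymphocyte markers tested had a median of 0.10, the 3 acinar markers 0.16 and the 2 adipocyte markers -0.01, and the adipocyte markers summed to 0.0761 and 3.85 RPKM in labelled knockout livers and 0.114 and 4.04 RPKM in control livers. The part of these cells in the gene differences was not tested.

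**Figure D4:**
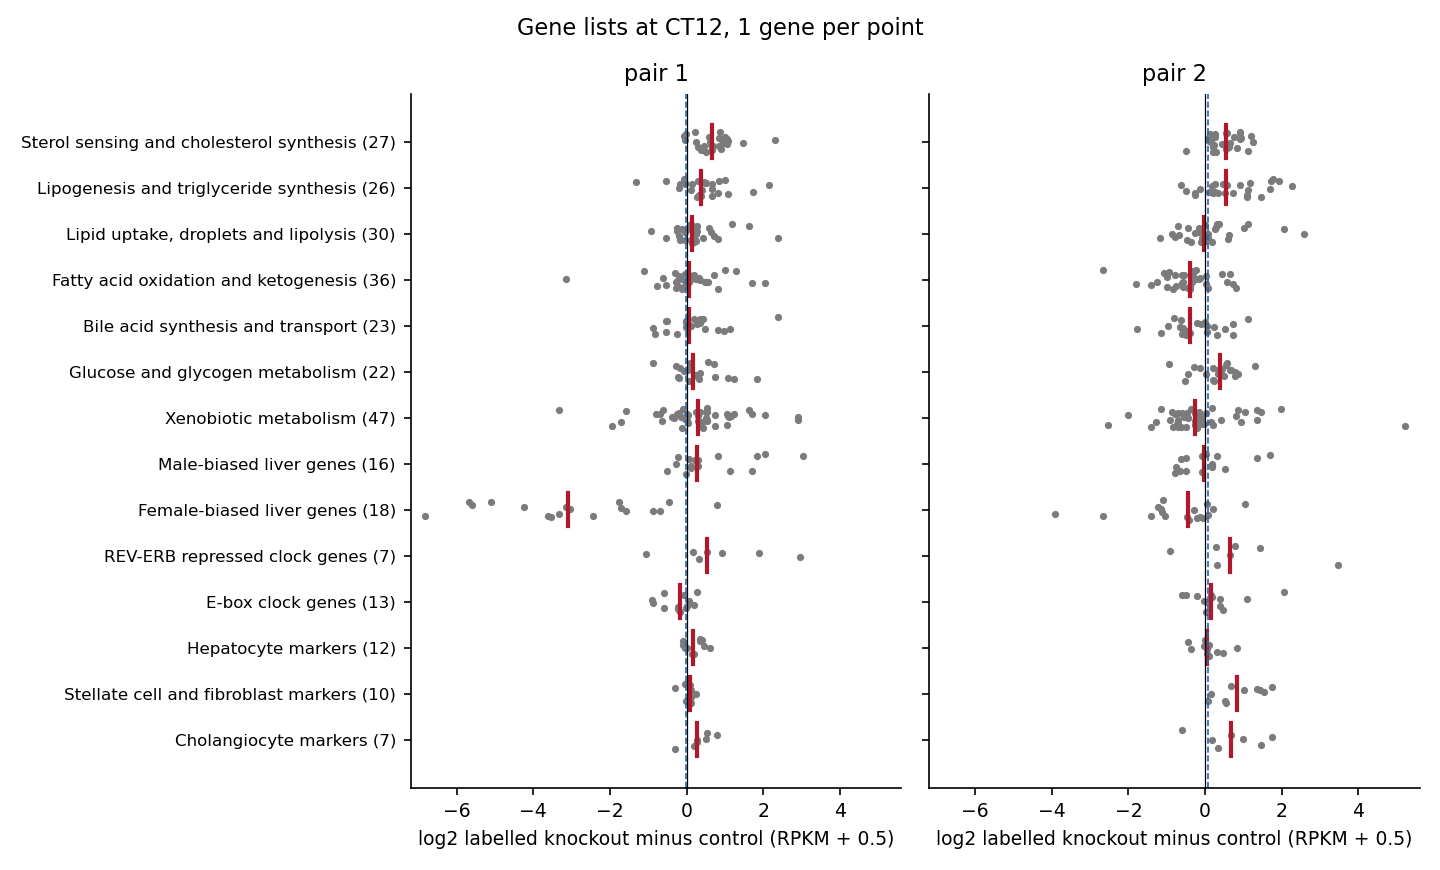
The log2 difference of RPKM + 0.5, labelled Nr1d1 knockout minus control at CT12, for each tested gene (grey points) of 14 lists, in pair 1 on the left and pair 2 on the right. Red bars are list medians and the blue dashed line is the median of all genes (-0.01 in pair 1, 0.07 in pair 2). The sterol list lies above 0 in both panels (medians 0.66 and 0.54), and the female-biased list lies at -3.10 in pair 1 and -0.44 in pair 2.

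The same comparison at CT0 used other libraries. No gene was called at CT0 (0.00%, limma), and 8 genes were at least 2-fold higher in both CT0 pairs (0.0628%) and 13 lower (0.102%). Of the 67 genes higher at CT12, 15 (22.4%) were higher in both CT0 pairs, against 17.8% of genes tested. Of the 18 lower genes, 10 (55.6%) were lower in both, against 33.2% of genes tested. Arntl, for example, had 8.03 and 19.9 RPKM in labelled knockout livers and 8.92 and 39.7 RPKM in control livers at CT0. Its level in labelled knockout livers was thus about the same at both times, while in control livers it was low at CT12. D0H4S114 had 1.77 and 6.87 RPKM in labelled knockout livers and 1.59 and 6.54 RPKM in control livers at CT0, close together in each pair. Lpl had 4.83 and 18.4 RPKM in labelled knockout livers and 2.98 and 7.42 RPKM in control livers at CT0, higher at both times. No gene passed the test of the difference between CT12 and CT0 (538 at unadjusted p under 0.05, 4.22%), the lowest limma adjusted p being 0.167 for Arntl and D0H4S114.

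The libraries labelled liver-specific Bmal1 knockout at CT12 gave a comparison with other animals. Arntl, the gene called Bmal1 in that label, was at 4.37, 3.59 and 4.01 RPKM in livers labelled Bmal1 knockout and at 1.26, 0.680 and 1.21 RPKM in their controls at CT12. It was thus higher in every labelled knockout liver, against the label (log2 difference 1.55 ± 0.16, limma adjusted p = 6.63e-05). At CT0 it was lower, at 5.91, 5.73 and 7.45 RPKM in livers labelled Bmal1 knockout and 16.3, 15.7 and 15.7 RPKM in their controls. Which part of the gene was deleted is not given in these sources. The Y-linked gene Ddx3y was expressed in these livers but all but absent from the Nr1d1 libraries at CT12, as given above. The part of this difference in the comparison of the experiments was not tested. Of the 18 female-biased liver genes 11 were tested in the Bmal1 experiment. Of the 67 genes higher in both Nr1d1 pairs, 63 were tested there, and 41 were called higher in labelled Bmal1 knockout livers. That is 65.1% of the 63 tested and 5.62% of the 729 genes called higher there (6.54% of 11143 genes tested in both experiments). Cml5, a camello-like gene, was called lower and was the 1 exception in sign among those called. Of the 18 genes lower in both Nr1d1 pairs, 12 were tested and 8 called lower in labelled Bmal1 knockout livers. That is 66.7% of the 12 tested and 2.18% of the 367 called lower (3.29% of genes tested). None of the 12 was called higher.

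The control livers of the Bmal1 experiment gave the time of day at which these genes are high. Of the 63 higher genes tested in both experiments 39 were lower at CT12 than at CT0 in those controls, or 61.9% of the 63. They are 4.67% of the 836 genes called lower at CT12 (7.50% of genes tested). Lpin1 alone was higher (3.46% of genes were). Of the 12 lower genes tested in both experiments 4 were higher at CT12, or 33.3% of the 12 and 1.04% of the 385 called higher, and none lower. The control CT12 libraries serve in both of these Bmal1-experiment contrasts. Arntl averaged 3.99 ± 0.39 RPKM in labelled Bmal1 knockout livers and 1.05 ± 0.32 RPKM in their controls at CT12, and 15.9 ± 0.37 RPKM in controls at CT0 (SD, n = 3 each). Lpl averaged 54.9 ± 4.205 RPKM in labelled Bmal1 knockout livers and 2.88 ± 0.64 RPKM in their controls at CT12, and 7.01 ± 1.54 RPKM in controls at CT0. D0H4S114 averaged 2.24 ± 0.96 RPKM in labelled Bmal1 knockout livers and 21.7 ± 7.92 RPKM in their controls at CT12, and 2.73 ± 0.51 RPKM in controls at CT0. At CT12 the livers labelled Bmal1 knockout thus lay between the CT12 and the CT0 controls for Arntl, above both for Lpl and near the CT0 controls for D0H4S114.

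**Figure D5:**
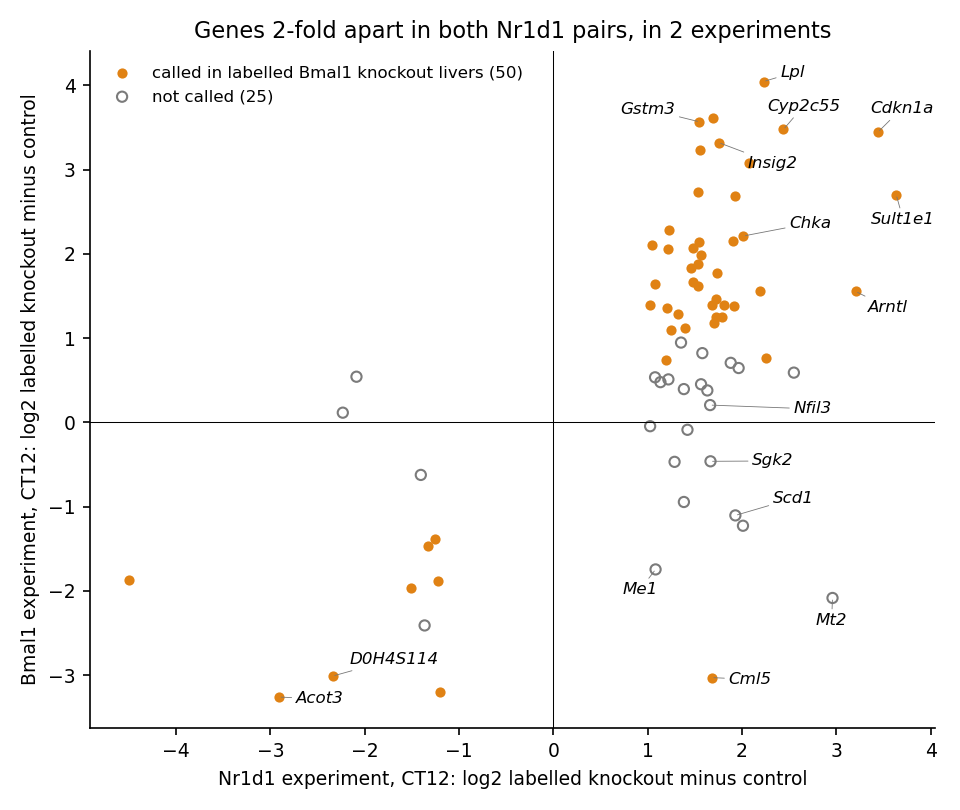
For the 75 genes at least 2-fold apart in both Nr1d1 pairs and tested in both experiments, the log2 difference at CT12, labelled Nr1d1 knockout minus control, on the horizontal axis, against labelled Bmal1 knockout minus control on the vertical axis. Orange points (50) were called in the Bmal1 experiment and open circles (25) were not. Most points share a sign, with Cml5, Mt2, Me1 and Scd1 higher in labelled Nr1d1 knockout livers and lower in labelled Bmal1 knockout livers.

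The difference between the Nr1d1 and Bmal1 effects at CT12 was itself tested and called for 18 genes (0.141% of genes tested, limma on 20 libraries). Among them was Cry1, which differed by 0.30 in labelled Nr1d1 knockout livers and by 1.71 in labelled Bmal1 knockout livers, a difference of -1.41 ± 0.17 (limma adjusted p = 0.00233). Among the 67 genes it was called for Sgk2, a kinase gene, with 1.67 in labelled Nr1d1 knockout livers and -0.46 in labelled Bmal1 knockout livers (2.13 ± 0.32, limma adjusted p = 0.0119). Sgk2 had 20.4 and 79.6 RPKM in labelled Nr1d1 knockout livers and 5.31 and 28.1 RPKM in their controls. The experiments also differed in Y-linked expression, and its part in the 18 calls was not tested.

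Others of the 18 genes differed little in the Nr1d1 pairs and by much in the labelled Bmal1 knockout. Cyp2a5, a coumarin hydroxylase gene, differed by -0.20 in labelled Nr1d1 knockout livers and by -3.91 in labelled Bmal1 knockout livers (difference 3.70 ± 0.33, limma adjusted p = 0.000177). Ces1d, a carboxylesterase gene, differed by -0.71 and -2.75 in the same order. Upp2, a uridine phosphorylase gene with a strong rhythm in liver, differed by -0.21 in labelled Nr1d1 knockout livers and by -2.73 in labelled Bmal1 knockout livers. Several clock genes missed the test of the difference. Gm129 differed by 0.02 in labelled Nr1d1 knockout livers and by -3.16 in labelled Bmal1 knockout livers (limma adjusted p = 0.054), and Npas2 by 0.58 and 2.93 in the same order (limma adjusted p = 0.054). Arntl, with 3.21 in labelled Nr1d1 knockout livers and 1.55 in labelled Bmal1 knockout livers, where it is the targeted gene and went against the label, had an adjusted p of 0.065 in the same limma test, and Nr1d2, with 0.23 and -2.07, had 0.067. Of the 13 E-box clock genes 8 were called lower and none higher in labelled Bmal1 knockout livers, where their median was -1.39, against no call and a median of -0.01 in labelled Nr1d1 knockout livers. Sterol genes were called higher in 11 of 27 in labelled Bmal1 knockout livers, with a median of 0.64 there and 0.67 in labelled Nr1d1 knockout livers.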

How the data were processed

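Whole-liver RNA was sequenced from TruSeq libraries, per the labels' protocols. The authors deposited 1 RPKM value per transcript (Ensembl identifiers) and library. The submitters' processing notes list the build mm9, TopHat2 and bedtools 2.19.1, and Bowtie for replicate 1 alone. What each tool did, the annotation and the read filters are not given in these sources, and no count file was used here.

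From these files, 46585 transcripts were reduced to 22322 gene symbols, keeping the transcript whose mean log2(RPKM + 0.5) was highest. Genes averaging 0.5 RPKM or more across the 8 Nr1d1 libraries (12738) were tested with limma 3.58.1 in R 4.3.3 (group means, replicate number as a block, eBayes with trend, two-sided, Benjamini-Hochberg adjusted p under 0.05). The pseudocount of 0.5 understates differences of low genes. The replicate number pairs the libraries in the data: deviations of same-numbered libraries from their group means correlated across genes at 0.82 to 0.88 over 6 pairs of groups. With 2 replicates this cannot separate a pairing of animals from the difference in sequencing between replicates 1 and 2.

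Reads were recovered from the steps of low RPKM values, with whole reads (tolerance 0.05) in all 8 libraries for 17002 of 18950 transcripts (89.7%), and are used as a description and in limma's voom as an alternative. The fit was also run on simulated data, with the spread of each gene capped at the median over genes. That spread is below the real one for many genes, so the run does not give the error rate of the calls. Genes were named as Nr1d1, called genes, members of the clock and receptor lists, Y-linked genes, Elovl3, Insig2, Lpl, Cidec, Tubb2a and Cyp7a1. Members, 21 pathway lists and 10 marker lists were chosen with earlier results of these data known, so no list is independent evidence of its direction. Lists are described by counts and medians, with no set test. Some single genes counted in the lists and totals have no values given. Alternatives covered the block, the libraries, the pseudocount, scaling, the filter, the choice of transcript and each left-out library. Promoters are RefSeq, GRCm38.p6, matched by symbol, and no coordinate of mm9 was used.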

Additional observations from a re-analysis of the deposited data

Results flagged for a closer look

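Of 89 named genes, 22 (24.7%) differed in one direction in both pairs at CT12 and in the other in both pairs at CT0. The same holds for 1742 of 12738 genes tested (13.7%) and for 17 of the 85 genes at least 2-fold apart at CT12 (20.0%). Many of the named genes were chosen after their values were seen, so their share is a description only. The values are log2 differences, labelled Nr1d1 knockout minus control, at CT12 minus the same at CT0. Among clock genes higher in labelled knockout livers at CT12 and lower at CT0 they were 3.77 for Arntl, 1.60 for Clock, 1.09 for Cry1, 1.80 for Npas2 and 0.71 for Rora. Of the other genes with these directions they were 2.35 for Chka, 1.78 for Ethe1, 1.55 for Hspa1a, 1.37 for Plin5, 2.19 for Ppp1r3c, 0.37 for Srebf2, 1.71 for Tjp3, 2.52 for Tubb2a, 2.29 for Tubb2b and 1.57 for Zbtb16. They were -1.76 for Alas1, -2.43 for D0H4S114, -0.15 for Hlf, -1.91 for Nr0b2, -1.24 for Srebf1, -1.14 for Tef and -0.94 for Wee1, which were lower at CT12 and higher at CT0. None passed limma's test of the difference between the times after Benjamini-Hochberg adjustment over 12738 genes, the lowest adjusted p being 0.167 for Arntl and D0H4S114. The Y-linked genes of replicate 1 differed between CT12 and CT0, and their part in these differences was not tested.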

How the results depend on the processing

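The replicate block carried the calls: with no replicate block 0 genes were called (0 higher, 0 lower), against 5 (4 and 1) with it. A block within each time, chosen after seeing the data, gave 10 (9 higher). The 4 CT12 libraries alone gave 38 (34 higher, 4 lower). A pseudocount of 1 gave 1 (0 higher), TMM factors 2 (1 higher), quantile normalization 2 (1 higher), no filter 0 (0 higher, 0 lower) and summed transcripts 0 (0 higher, 0 lower). Libraries at 1 RPKM sum gave 112 (95 higher, 17 lower) and 33 for the difference between times, and moved the median of all genes to 0.17 from 0.04. limma's voom on recovered reads, also chosen after seeing the data, gave 9 (8 higher) and 3 for the difference between times. Leaving out 1 library gave 0 to 4 calls (0 to 3 higher, 0 to 2 lower), and 0 to 4 for the difference between times. Nr1d1 then ranged between -0.37 and 1.69.

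Genes apart in both pairs numbered 223 higher and 80 lower at 1.5-fold, 105 and 35 with a pseudocount of 0.1, and 107 higher with libraries at 1 RPKM sum.

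Some single genes near 0 turned sign. With libraries at 1 RPKM sum Dbp was 0.141, Hlf 0.0111 and Tef 0.0598. Gm129 was -0.0345 with TMM factors, -0.00754 with quantile normalization and -0.0373 with voom. Over left-out libraries the ranges were -0.37 to 0.34 for Dbp, -0.289 to 0.0125 for Hlf, -0.32 to 0.13 for Tef, -0.000689 to 0.0448 for Gm129, -0.14 to 0.52 for Cry2, -0.15 to 0.61 for Nr1d2, -0.99 to 0.14 for Per2 and -0.69 to 0.23 for Per3. They were -0.54 to 1.03 for E2f8, -2.16 to 2.34 for Elovl3, -3.72 to 0.60 for Cyp2b13, -5.11 to 0.46 for Sult2a1, -1.26 to 1.14 for Ddx3y, -1.62 to 1.40 for Eif2s3y and -0.90 to 0.84 for Uty. The cause was not tested for any of these. An edgeR fit on recovered reads was planned and not run, because the deposited unit is RPKM. With 2 livers a group and 3 residual degrees of freedom, a gene that misses the test is not shown to be unaffected.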
